A study of Mus musculus with 4 samples.

Results

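The loci of 6 transcription factor genes were examined for 5-hydroxymethylcytosine (5hmC) in mouse embryonic stem cells (ESC) and in neural progenitor cells (NPC) derived from them. The genes were Gata4, Gata6, Sox17, Foxa2, Cdx2 and Gata2, named for this purpose as mesoderm and endoderm regulators. Each locus was the gene span on genome build mm9 plus 20 kb on each side, and the spans were fixed by position, not by a measured value. Gata4 spans 63817000 to 63891000 on chromosome 14, Gata6 spans 11052000 to 11086000 on chromosome 18, and Sox17 spans 4481000 to 4487000 on chromosome 1. Foxa2 spans 147868000 to 147873000 on chromosome 2, Cdx2 spans 148112000 to 148119000 on chromosome 5, and Gata2 spans 88143000 to 88158000 on chromosome 6. Together the 6 loci cover 381 kb. They hold 70 of the 527794 tiles of 5 kb into which chromosomes 1 to 19 and X were divided, and all 70 passed the filter on input reads that kept 476819 tiles. No mm9 annotation was used, so that the ends of the spans, rounded to 1 kb, were not checked against exons or start sites.

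Each of the 2 cell types gave a 5hmC library, precipitated from denatured DNA with a polyclonal antibody, and an input library without antibody. ESC were of the 46C line (strain 129/Ola), which carries GFP as a reporter of Sox1, a gene of neural progenitors, and grew in serum with leukemia inhibitory factor. NPC came from the same line after 9 days of neural differentiation in N2B27 monolayer culture, as rosette-like cells positive for the GFP reporter. The deposited reads numbered 7291825 for ESC 5hmC, 5106976 for ESC input, 1776959 for NPC 5hmC and 6637930 for NPC input. Barcoded DNA of both cell types shared a single precipitation tube, which allows 5hmC per input to be compared between them. Neither cell type had siRNA or shRNA treatment. With 1 library per group no difference has a replicate check and no p-value was computed. DNA libraries carry no expression values, so that neither the cell types nor the activity of these genes could be checked. A change in the share of cells that carry the mark and a change in the amount per cell cannot be told apart.

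5hmC is formed when TET enzymes oxidize 5-methylcytosine, mostly at CpG dinucleotides. In ESC it is known to lie in gene bodies and at distal regulatory elements, and to be sparse at promoters with dense, unmethylated CpG. The 6 factors bind DNA through conserved domains. GATA4, GATA6, SOX17 and FOXA2 act in the formation of endoderm, GATA4 and GATA6 also in the heart. CDX2 acts in trophectoderm and in the posterior embryo and gut, and GATA2 in blood progenitors. In ESC such developmental genes are known to be held in a repressed, poised state by Polycomb proteins.

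RefSeq (build GRCm38.p6) gave promoter sequences for 3 of the 6 genes, Cdx2, Gata2 and Foxa2. They show the CpG sites on which the mark can form where these genes start, with CG in capitals. Each covers 300 bases around a start. Their coordinates are of GRCm38 and were not used to place reads of mm9.
Cdx2, chr5:147307200-147307499, minus strand: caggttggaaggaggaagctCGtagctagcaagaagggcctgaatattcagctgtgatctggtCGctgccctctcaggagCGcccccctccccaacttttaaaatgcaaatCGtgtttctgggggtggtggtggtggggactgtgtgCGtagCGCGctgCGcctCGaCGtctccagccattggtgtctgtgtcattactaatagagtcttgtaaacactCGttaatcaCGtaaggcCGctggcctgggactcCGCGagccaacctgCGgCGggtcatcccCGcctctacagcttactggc
Gata2, outer start, chr6:88193641-88193940, plus strand: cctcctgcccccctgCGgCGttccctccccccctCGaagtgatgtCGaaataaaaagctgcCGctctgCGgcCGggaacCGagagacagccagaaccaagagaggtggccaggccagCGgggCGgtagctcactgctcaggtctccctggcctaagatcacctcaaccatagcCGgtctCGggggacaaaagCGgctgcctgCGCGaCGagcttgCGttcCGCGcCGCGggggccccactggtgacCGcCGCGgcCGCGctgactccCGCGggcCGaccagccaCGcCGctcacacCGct
Gata2, inner start, chr6:88198414-88198713, plus strand: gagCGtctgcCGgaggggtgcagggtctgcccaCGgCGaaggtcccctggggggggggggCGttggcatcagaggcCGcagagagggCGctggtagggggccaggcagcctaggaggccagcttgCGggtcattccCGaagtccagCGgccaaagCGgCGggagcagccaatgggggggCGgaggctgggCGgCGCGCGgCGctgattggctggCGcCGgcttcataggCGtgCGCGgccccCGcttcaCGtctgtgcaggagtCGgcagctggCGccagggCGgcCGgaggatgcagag
Foxa2, outermost start, chr2:148046920-148047219, minus strand: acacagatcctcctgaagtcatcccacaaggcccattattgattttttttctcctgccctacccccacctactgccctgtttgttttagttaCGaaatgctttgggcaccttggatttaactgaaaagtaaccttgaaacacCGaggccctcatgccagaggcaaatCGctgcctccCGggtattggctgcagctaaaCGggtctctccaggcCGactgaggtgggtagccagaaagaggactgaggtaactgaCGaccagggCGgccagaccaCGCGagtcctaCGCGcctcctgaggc
The Cdx2 promoter holds 18 CG, those of Gata2 hold 32 and 29, and this one of Foxa2 holds 12, against a median of 7 over 32851 RefSeq promoters of the same length. Of all promoters 70.3% held fewer CG than that of Cdx2, 90.5% and 87.1% fewer than those of Gata2, and 60.4% fewer than this one of Foxa2. The other Foxa2 starts in RefSeq hold 23 and 13 CG, with 78.5% and 62.1% of promoters holding fewer. Cdx2 and Foxa2 are transcribed towards lower coordinates and Gata2 towards higher ones.

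The first question was how much 5hmC each locus held in each cell type. Values are distinct reads, counted once per position and strand, and levels are 5hmC reads per input read. Over the 6 loci there were 2029 ESC 5hmC reads over 1008 ESC input reads, and 348 NPC 5hmC reads over 1373 NPC input reads. ESC thus held 1.43 times the level of the rest of the genome (95% interval 1.33 to 1.54), whereas NPC held 0.958 times (0.852 to 1.08). NPC over ESC gave 0.126 (0.109 to 0.145), which is 7.94-fold lower (6.91 to 9.13), against 5.32-fold lower genome-wide (0.188). The intervals describe counting error alone, since amplified copies of a fragment are not separate molecules. With a background of 0.145 reads per input read subtracted from both cell types, NPC over ESC was 0.0582. Nothing was subtracted from the genome-wide 0.188, so that these 2 values are not to be compared. Summed, the loci thus exceeded the genome in ESC and not in NPC, but single loci departed from the sum in both directions.

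From the lowest to the highest locus the level spanned 2.81-fold in ESC and 2.10-fold in NPC. In ESC the order was Cdx2, Gata2, Gata4, Foxa2, Gata6 and Sox17. Of the 15 pairs, 12 differed in ESC beyond counting error, with intervals not adjusted for the number of pairs. Cdx2 and Gata2, Gata4 and Foxa2, and Gata6 and Sox17 did not, with ratios of 1.09 (0.840 to 1.42), 1.11 (0.836 to 1.47) and 1.08 (0.770 to 1.52). In NPC 5 of 15 pairs differed, from 42 to 85 5hmC reads a locus against 110 to 679 in ESC, so that these counts of pairs were not compared. The ESC level lay above the genome-wide level in 4 loci, with the interval clear of it, and below it in 2. Among genome windows of the loci's lengths, 24% lay above and 57.8% below by the same criterion. In NPC 1 locus lay above and 1 below, against 14.2% and 19.5% of windows, so that the NPC counts were not set apart from that background.

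**Figure D1:**
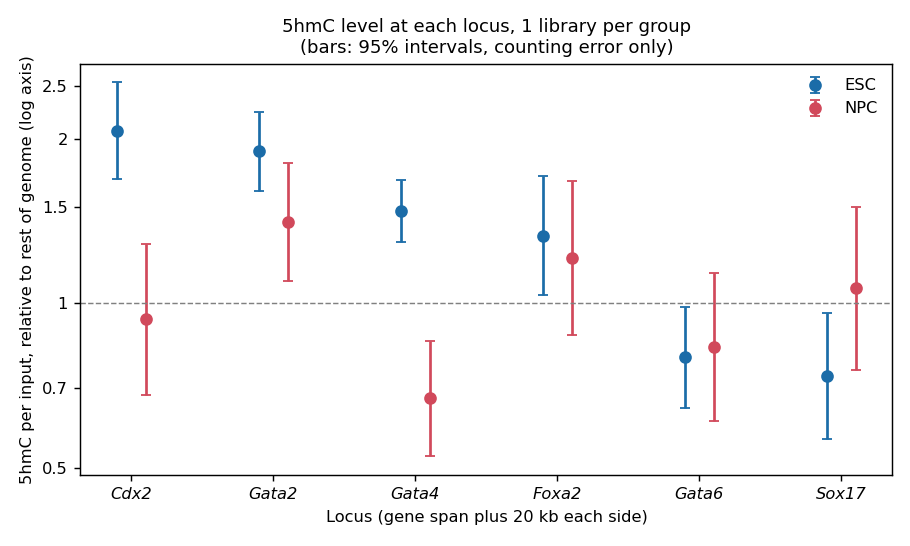
5hmC per input at each locus relative to the rest of the genome (log axis), with points for ESC (blue) and NPC (red), 95% intervals of counting error as bars, and loci ordered by ESC level. ESC run from 2.07 at Cdx2 to 0.737 at Sox17, while in NPC Gata2 is highest (1.41) and Gata4 lowest (0.671).

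Cdx2 was the locus richest in ESC 5hmC. It held 367 5hmC reads over 126 input reads in ESC and 48 over 194 in NPC. ESC stood at 2.07 times the genome (1.69 to 2.53), above 93.7% of the 49140 windows of its length. NPC stood at 0.935 times (0.682 to 1.28), near the middle of those windows (56.2% lower). NPC had 0.0849 of the ESC level (0.0572 to 0.125) and so were 11.8-fold lower (7.97 to 17.5), and 4.43% of windows had a lower ratio.

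At Gata2 the counts were 515 over 193 in ESC and 85 over 228 in NPC. Both cell types lay above the genome here, ESC at 1.90 times (1.61 to 2.24) and NPC at 1.41 times (1.10 to 1.81). It was the only locus of the 6 whose NPC interval lay above 1. The NPC/ESC ratio of 0.140 (0.102 to 0.190) reached up to the genome-wide value. A 1 kb stretch from 88170000 to 88170999 held 13 of the 85 NPC reads, and without it NPC stood at 1.23 times (0.944 to 1.61). That stretch was picked for its NPC reads, so that leaving it out can only lower the NPC count.

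Gata4, the longest locus, held 679 ESC 5hmC reads over 327 input reads and 77 over 434 in NPC. ESC stood at 1.47 times the genome (1.29 to 1.68) and NPC at 0.671 times (0.526 to 0.855). It was the only locus whose NPC interval lay below 1 with no stretch left out. NPC had 0.0854 of the ESC level here (0.0640 to 0.113) and so were 11.7-fold lower (8.82 to 15.6). The NPC level was 0.177 reads per input read (0.137 to 0.227), an interval that includes the background of 0.145. Of 20482 windows of this length 1.99% had a lower ratio. Windows in the same decile by ESC level as Gata4 had a summed ratio of 0.142 and an NPC level of 1.17 times the genome.

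Foxa2 held 176 over 94 in ESC and 48 over 150 in NPC. ESC stood at 1.33 times the genome (1.04 to 1.71) and NPC at 1.21 times (0.874 to 1.67). Its ratio of 0.171 (0.111 to 0.263) included the genome-wide value and was close to the 0.169 of windows in the same decile by ESC level. The ESC level depended on the flanks taken. With 50 kb on each side it was 0.815 times the genome, below and no longer above it.

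Gata6 and Sox17 were poor in ESC 5hmC. Gata6 held 182 over 162 in ESC and 48 over 218 in NPC, or 0.798 times the genome (0.646 to 0.986) and 0.832 times (0.609 to 1.14). Sox17 held 110 over 106 in ESC and 42 over 149 in NPC, or 0.737 times (0.564 to 0.962) and 1.07 times (0.757 to 1.501). The median window is itself poorer than the genome-wide level, so that Gata6 lay above 58.7% and Sox17 above 56.3% of windows in ESC. NPC over ESC gave 0.196 at Gata6 (0.131 to 0.290), close to the genome-wide value, and 0.272 at Sox17 (0.171 to 0.428). At Sox17 the ratio rested in part on 1 stretch of 1 kb, from 4499000 to 4499999, which held 19 of the 42 NPC 5hmC reads. Without it the ratio was 0.167 (0.0951 to 0.287). NPC then stood at 0.596 times the genome (0.384 to 0.924), an interval below 1. This stretch too was picked for its NPC reads, so that leaving it out can only lower the NPC count.

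Ordered by the NPC/ESC ratio, the loci ran from Cdx2 and Gata4 through Gata2, Foxa2 and Gata6 to Sox17. In all 6 the interval lay below 1, against 83.6% of genome windows of these lengths. It lay wholly below the genome-wide ratio at Cdx2 and Gata4, against 15.6% of windows of these lengths, and wholly above it at no locus, against 40.1%. For the other loci, 19.3% of windows of the locus' length had a lower ratio than Gata2 and 29.4% than Foxa2. The shares were 35.2% for Gata6 and 52.2% for Sox17. At each locus length the median window had a ratio of 0.26, above the genome-wide ratio. Of the 15 pairs 9 differed beyond counting error. The pairs that did not were neighbours or near neighbours in the order: Cdx2 with Gata4, and, among the rest, Gata6 with Sox17, Foxa2 and Gata2, Foxa2 with Sox17, and Foxa2 with Gata2. Gata4 over Cdx2 gave 1.01 (0.631 to 1.60), and Gata6 over Sox17 gave 0.722 (0.406 to 1.28). Genome windows richer in ESC 5hmC had lower ratios, so each locus was set beside windows in the same decile by ESC level. Windows as rich as Cdx2 and Gata2 had summed ratios of 0.112 and 0.113, within the intervals of both loci. Of the 6 loci Gata4 was the one whose interval did not include the value of its decile (0.142).

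The second question was whether the gene itself and its surroundings behaved alike. Summed over the loci, the gene spans held 890 5hmC reads over 387 input reads in ESC and 96 over 518 in NPC. The flanks held 1139 over 621 and 252 over 855. In ESC the spans exceeded the flanks 1.25-fold (1.07 to 1.46), whereas in NPC they had 0.629 of the flanks' level (0.485 to 0.815). The NPC/ESC ratio was therefore 0.0806 in the spans (0.0622 to 0.104) and 0.161 in the flanks (0.135 to 0.191), so that the spans had 0.501 of the flanks' ratio (0.371 to 0.678). Gata4 gave 52.5% of NPC input reads in the spans but 18.9% in the flanks, so that these sums compare unlike mixtures of loci. As a weighted mean of the loci's own values, span over flanks was 1.36 in ESC (1.14 to 1.62), 0.755 in NPC (0.563 to 1.01) and 0.565 for the ratio (0.401 to 0.796). The NPC interval then included 1. The flanks were near the genome-wide ratio of 0.188, which their interval included. The spans were 12.4-fold lower in NPC than in ESC (9.62 to 16.1). Their NPC level of 0.185 reads per input read (0.147 to 0.231) was little above the background of 0.145, which was not subtracted here. The estimate of the span ratio was below that of the flanks at each of the 6 loci, but the difference exceeded counting error at Cdx2 and Gata2 alone. Other genes were not split in the same way, so that whether this pattern is particular to these loci was not tested.

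**Figure D2:**
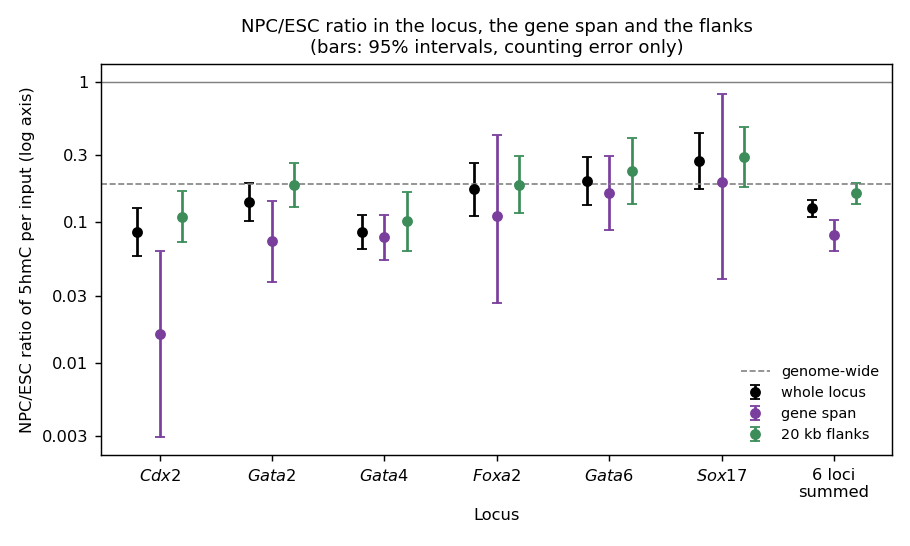
NPC/ESC ratio of 5hmC per input (log axis) in the whole locus (black), the gene span (purple) and the 20 kb flanks (green), with 95% intervals of counting error and the genome-wide ratio of 0.188 dashed. The gene span of Cdx2 is lowest at 0.0160, and for the 6 loci summed the span (0.0806) lies below the flanks (0.161).

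The contrast was greatest over Cdx2. Its 7 kb span held 67 5hmC reads over 15 input reads in ESC, 3.17 times the genome (1.81 to 5.55). In NPC it held 3 over 42, or 0.270 times (0.0837 to 0.871). That is 0.0714 NPC reads per input read (0.0142 to 0.224), an interval that includes the background of 0.145 given above. The NPC level was thus not told apart from background, which limits what the size of the ratio shows. Each over its own input, ESC were thus high and NPC low in the same stretch. The NPC/ESC ratio was 0.0160 (0.00294 to 0.0626), and 0.146 of that in the flanks (0.0376 to 0.568). The inputs themselves differed here, the NPC share of input reads being 2.15 times that of ESC (1.19 to 3.88). An input difference in this direction raises the ESC level and lowers the NPC level. With both inputs summed the span ratio was 0.0344. The 2 levels and the comparison with the flanks were not recomputed in that way. Among 171280 genome windows of 7 kb with at least 10 ESC 5hmC reads, 1.08% had a lower ratio, after 0.5 reads were added to each count. These windows were not matched by ESC level, and the ESC level of the span lay above 94.3% of them. The longest stretch of the locus without an NPC 5hmC read ran from 148112884 to 148119527, which is 6.64 kb and nearly the whole gene. It held 57 ESC 5hmC reads, 11 ESC input reads and 40 NPC input reads. The stretch was chosen for its lack of NPC 5hmC reads, and the exact interval of 0 over 40 reaches 0.365 times the genome-wide NPC level. Within the span the 4 bins of 1 kb at the low-coordinate end, where the gene ends, held 16, 25, 15 and 5 ESC 5hmC reads, and the other 3 held 1, 0 and 5. The 3 NPC reads lay in the first of these bins.

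At Gata2 the span held 211 over 54 in ESC, 2.78 times the genome (2.06 to 3.74), and 17 over 59 in NPC, 1.09 times (0.635 to 1.87). The span ratio of 0.0737 (0.0375 to 0.142) was 0.401 of that in the flanks (0.198 to 0.813). The ESC level in the span was 1.79 times that of the flanks (1.25 to 2.56), and in NPC 0.716 times (0.390 to 1.32). Of 113742 genome windows of 15 kb with at least 10 ESC 5hmC reads, 8.86% had a lower ratio. They too were not matched by ESC level, and that of the span lay above 96.2% of them.

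The Gata4 span held 470 over 212 in ESC and 47 over 272 in NPC, with a ratio of 0.0779 (0.0538 to 0.112). Of 31418 genome windows of 74 kb with at least 10 ESC 5hmC reads, 1.92% had a lower ratio. Its flanks had 0.102 (0.0628 to 0.163), and the span had 0.765 of the flanks' ratio (0.432 to 1.35), an interval that includes 1. The flanks differed from each other in ESC. The low-coordinate side, where RefSeq places Neil2 and Fdft1 next to Gata4, held 157 over 58 reads (1.92 times the genome, 1.42 to 2.60). The high-coordinate side held 52 over 57 (0.648 times, 0.445 to 0.944). The NPC counts on these sides were 11 over 77 and 19 over 85, so that the ratio rose from 0.0528 to 0.245, a 4.64-fold difference (1.82 to 11.9).

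The short spans of Sox17 and Foxa2 were thinly covered. Sox17 held 11 over 16 in ESC and 4 over 30 in NPC, and Foxa2 held 34 over 12 and 5 over 16. The span ratios of 0.194 (0.0397 to 0.811) and 0.110 (0.0267 to 0.415) do not allow a difference from the flanks to be read at this depth. Gata6 held 97 over 78 and 20 over 99 in its span, a ratio of 0.162 (0.0876 to 0.294) against 0.233 in the flanks (0.134 to 0.398). These 3 genes gave no difference between span and flanks beyond counting error. Genome windows of each span's length with at least 10 ESC 5hmC reads were taken here too. Of these, 63.4% had a lower ratio than the Sox17 span, 40.5% than that of Foxa2 and 28.9% than that of Gata6.

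The sides of a locus differed elsewhere too. At Cdx2 the high-coordinate side, upstream of the gene, held 215 over 58 in ESC, 2.63 times the genome (1.97 to 3.52), and the low-coordinate side 85 over 53, 1.14 times (0.808 to 1.61). RefSeq places Urad and Gm29778 on the high-coordinate side and Mir7k and Gm35112 on the low-coordinate one, so that these flanks hold other genes. NPC were at 1.09 and 1.15 times the genome on these sides. The level of the high-coordinate side over that of the low-coordinate side was thus 2.31 in ESC (1.47 to 3.62), whereas for NPC it was 0.947 (0.486 to 1.84). At Foxa2 NPC were higher on the low-coordinate side, at 1.955 times the genome (1.26 to 3.04) from 30 over 58 reads, than on the upstream side, at 0.647 times (0.359 to 1.16) from 13 over 76. Of those 30 reads, 12 lay in the 1 kb from 147849000 to 147849999, and without it the low-coordinate side stood at 1.24 times (0.727 to 2.11). At Sox17 NPC reached 1.67 times (1.02 to 2.73) on the high-coordinate side, which holds the dense 1 kb stretch named above, and stood at 0.309 times (0.111 to 0.855) without it. Both stretches were chosen for their NPC reads. Summed over the 6 loci, the sides had nearly equal ratios, 0.160 and 0.161, but single loci went in opposite directions. High over low side gave 4.64 at Gata4, 3.19 at Sox17 (0.784 without the dense stretch) and 2.12 at Gata6. It gave 0.410 at Cdx2, 0.494 at Foxa2 and 0.692 at Gata2. The intervals at Gata6, Foxa2 and Gata2 included 1. Without its own densest 1 kb of NPC reads, on the low-coordinate side, Cdx2 gave 0.440 (0.189 to 1.03), which included 1 as well. Sides were taken by coordinate, so that the sums mix upstream and downstream flanks.

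The third question was where within the loci the mark lay. A tile was called enriched at 10 or more 5hmC reads and at least 2-fold over its own input, after libraries were scaled to their distinct reads and 0.5 reads added. In ESC 18 of 70 tiles (25.7%) were enriched, against 10.6% of kept tiles in the genome. In NPC 5 of 70 (7.14%) were, against 5.82%, which is near the background. Tiles enriched in ESC and NPC alike numbered 4 (5.71%), against 2.18%. Depleted tiles, at 0.5 or less of the genome-wide value with 10 or more own input reads, numbered 9 of 54 in ESC (16.7%, against 35.9%) and 18 of 65 in NPC (27.7%, against 26.9%). The loci thus had more enriched and fewer depleted tiles than the genome in ESC, and about as many of each as the genome in NPC. On the chromosomes used, NPC had 1742680 distinct 5hmC reads against 7123491 in ESC. The minimum of 10 reads is therefore harder to meet in NPC, where a difference from the genome is more easily missed. The median tile stood at 1.15 times the genome in ESC and 0.824 times in NPC, against 0.552 and 0.872 over all kept tiles. With 5 reads added in place of 0.5, 11 tiles were enriched in ESC and 0 depleted in NPC, against 6.67% and 0.0163% in the genome. NPC-enriched tiles numbered 9 at a minimum of 5 reads and 2 at a minimum of 20. The genome's shares at these minima were not taken, so that these 2 counts were not set against a background.

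Gata2 and Cdx2 had the largest shares of tiles enriched in ESC, with 5 of 10 and 4 of 8, against 10.6% of kept tiles in the genome. Gata4 had 5 of 22, Foxa2 2 of 8, Sox17 1 of 8 (12.5%) and Gata6 1 of 14 (7.14%). Sox17 and Gata6 were thus near the genome's share. Depleted ESC tiles numbered 3 of 4 at Sox17 and 4 of 10 (40%) at Gata6, against 35.9% in the genome. Gata6 was thus near the background. Gata4 had 1 of 19, Foxa2 1 of 5, and Cdx2 and Gata2 none. Depleted NPC tiles numbered 13 of 32 over gene spans (40.6%), 2 of 16 on the low-coordinate (12.5%) and 3 of 17 on the high-coordinate sides (17.6%). The genome's share was 26.9%. Of the 18 depleted NPC tiles, Gata4 held 7 and Gata6 held 4. In ESC 2 of 28 tiles over spans were depleted (7.14%, against 35.9% in the genome). Relative to the genome-wide value of each cell type, ESC exceeded NPC in 46 of 70 tiles (65.7%), against 36.4% of kept tiles in the genome. With 5 reads added the count was 23 of 70, against 11.3%. This held in 19 of 22 tiles at Gata4, 7 of 8 at Cdx2, 6 of 8 at Foxa2, 5 of 10 at Gata2, 6 of 14 at Gata6 and 3 of 8 at Sox17.

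**Figure D3:**
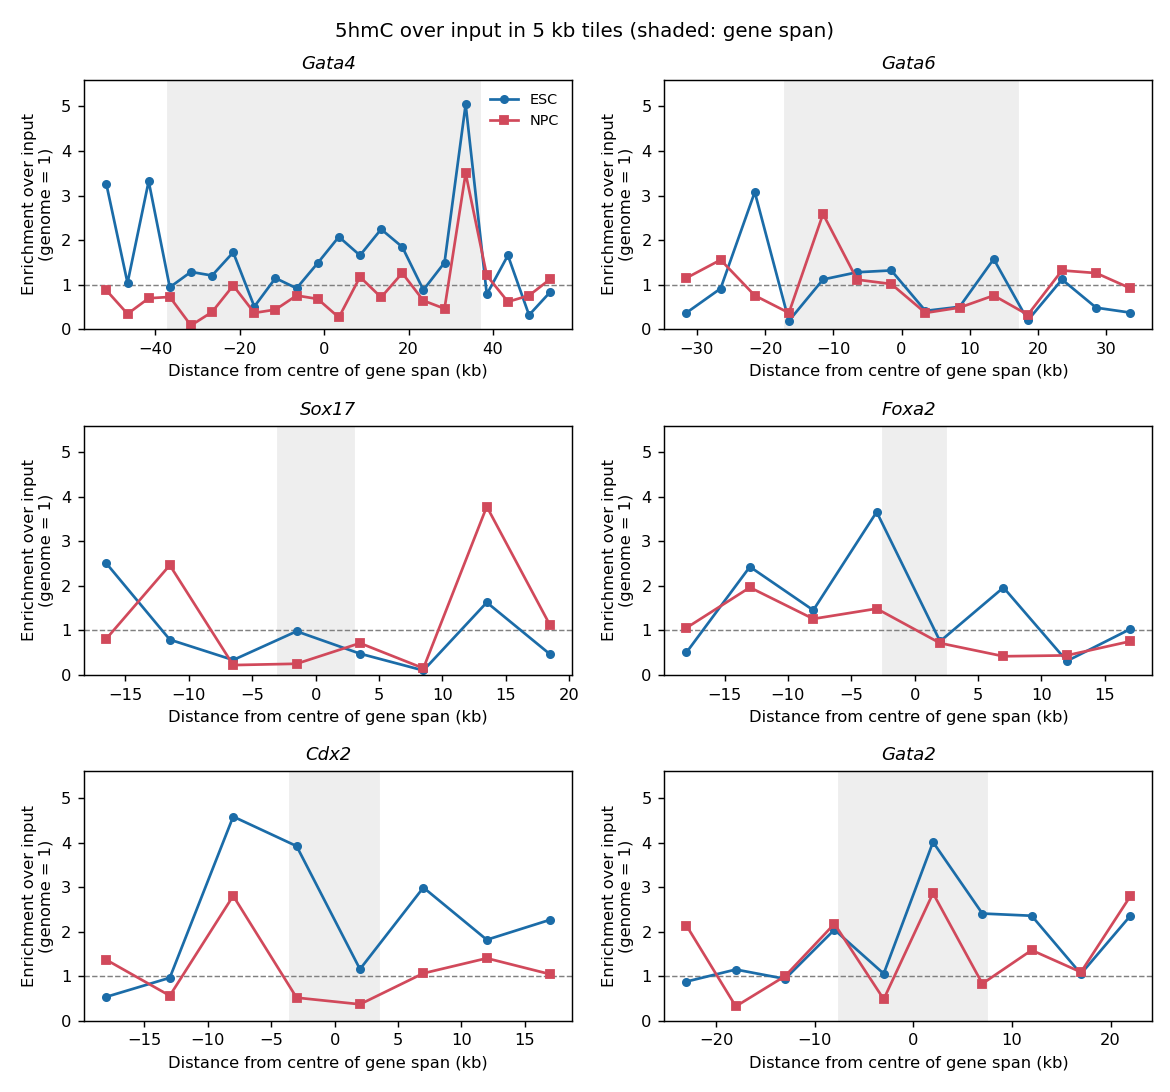
Enrichment of 5hmC over own input in 5 kb tiles (genome-wide value 1, dashed) for ESC (blue circles) and NPC (red squares), against distance from the centre of the gene span in kb, with the span shaded. ESC lie above NPC in 19 of 22 tiles at Gata4 and 7 of 8 at Cdx2 but in 5 of 10 at Gata2, and both rise in the tile at the high-coordinate end of Gata4 (5.05 and 3.50).

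Tiles were also set against the genome-wide ratio. The 19 tiles enriched in either cell type were enriched in ESC in 18 cases, which favours a low NPC/ESC ratio, so that their counts are given as a description. Of these, 11 (57.9%) were at least 2-fold below the genome-wide ratio, against 41.9% of such tiles in the genome, and 1 (5.26%) was at least 2-fold above it, against 21%. The genome's set holds a smaller share of tiles enriched in ESC. Among the 56 tiles with 10 or more ESC 5hmC reads, a choice made alike in the genome, 24 (42.9%) lay below, against 30.2%, and 5 (8.93%) above, against 13.9%. All 56 were at least 2-fold lower in NPC than in ESC, and none was 2-fold higher, but 92.4% of such tiles in the genome were lower and 0.063% higher. These counts depended on the reads added. With 5 in place of 0.5, 2 of the tiles enriched in either cell type lay below, against 14.6% in the genome. Of tiles with 10 or more ESC reads, 2 of 56 then lay below and 10 above, against 4.67% and 29.1%, so that the genome's tiles shifted in the same direction.

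In 4 of the 5 tiles enriched in NPC, ESC were enriched too. The strongest lay at the high-coordinate end of the Gata4 span, from 63885001 to 63890000. It held 67 over 9 reads in ESC, 5.29 times the genome (2.64 to 10.6), and 12 over 13 in NPC, 3.49 times (1.59 to 7.65). It was the Gata4 tile highest in both cell types, with a ratio of 0.124 (0.0381 to 0.401). Of its 12 NPC reads, 9 lay within the 1 kb from 63889000 to 63889999.

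The Gata2 tile from 88150001 to 88155000, inside the gene, held 104 over 18 in ESC (4.10 times, 2.49 to 6.77) and 12 over 16 in NPC (2.84 times, 1.34 to 5.99). Its ratio was 0.130 (0.0479 to 0.352). A second Gata2 tile, from 88170001 to 88175000 beyond the gene's end, held 94 over 28 in ESC (2.38 times, 1.56 to 3.64) and 25 over 34 in NPC (2.78 times, 1.66 to 4.66), with a ratio of 0.219 (0.107 to 0.450). RefSeq places Dnajb8 on the side of Gata2 that holds the second tile. In the second tile the plus strand held 71.3% of ESC reads (61.0% to 80.1%) and 80% of NPC reads (59.3% to 93.2%). In the first it held 51.0% (41.0% to 60.9%) and 66.7% (34.9% to 90.1%). The part of this uneven share of strands in the tile's values was not tested.

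At Cdx2 the tile just beyond the low-coordinate end, from 148105001 to 148110000, held 35 over 5 in ESC (4.97 times, 1.95 to 12.7) and 11 over 15 in NPC (2.77 times, 1.27 to 6.04). It is followed by the tile from 148110001 to 148115000 over the gene's end, which held 63 over 11 in ESC and 3 over 25 in NPC. Of these neighbouring tiles, both enriched in ESC, the first was enriched in NPC and the second was not. Of 6 NPC reads in the densest 1 kb of the first tile, all were on the plus strand.

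The Sox17 tile from 4495001 to 4500000 was the exception, enriched in NPC and not in ESC. It held 20 over 20 in NPC, 3.78 times the genome (2.03 to 7.03), and 19 over 8 in ESC, 1.69 times (0.738 to 3.85). It was the 1 tile, among those enriched in either cell type, at least 2-fold above the genome-wide ratio. Its NPC/ESC ratio was still below 1, at 0.421 (0.129 to 1.31), with an interval that included 1. Of the 20 NPC reads 19 lay in 1 kb, where the ESC 5hmC library had 10 reads, the ESC input none and the NPC input 3. The plus strand held 4 of the 19 NPC reads (21.1%, 6.05% to 45.6%) and 1 of the 10 ESC reads (10%, 0.253% to 44.5%). Each position was counted once, and the whole locus held 42 distinct among 43 deposited NPC 5hmC reads.

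**Figure D4:**
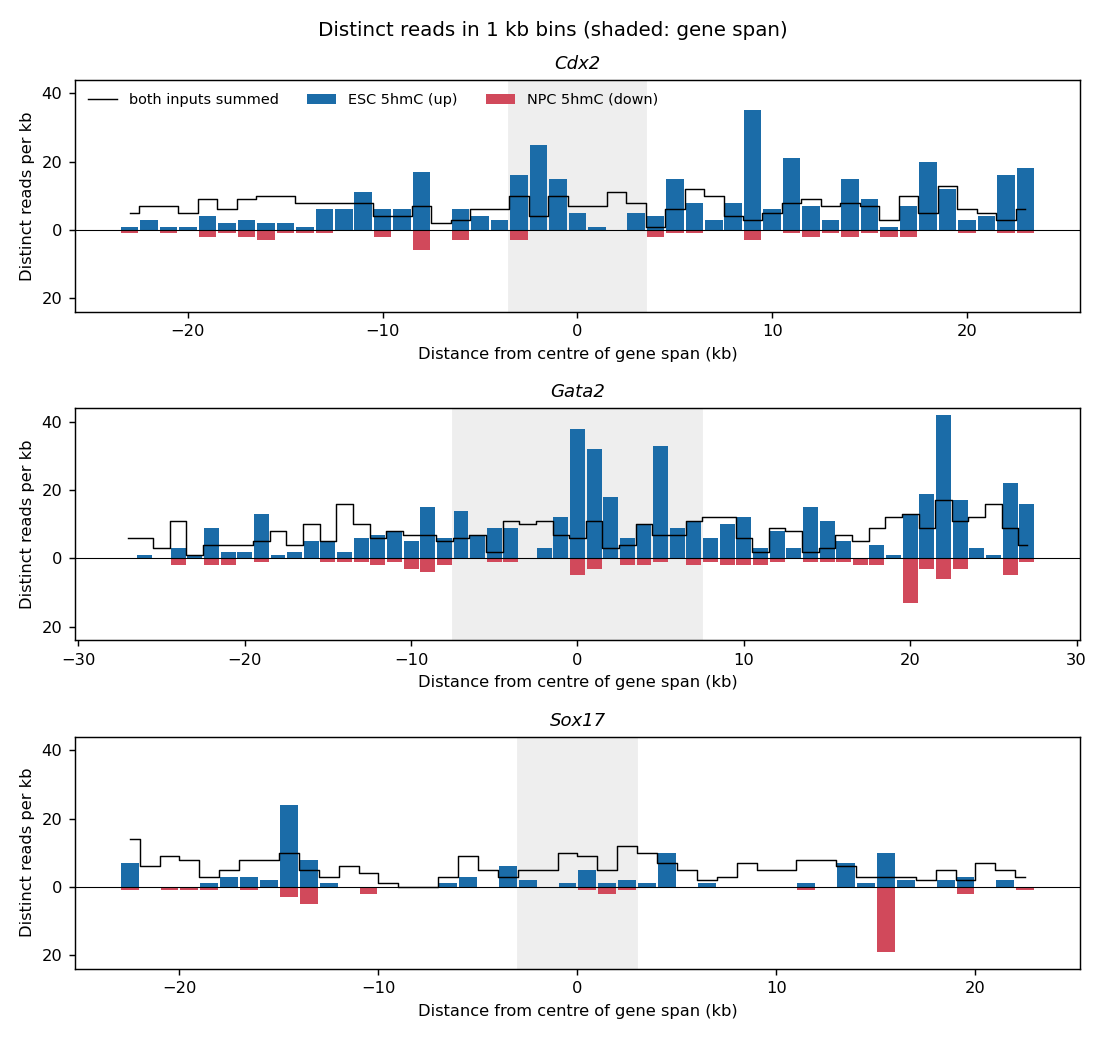
Distinct reads per 1 kb bin at Cdx2, Gata2 and Sox17, with ESC 5hmC drawn upwards (blue), NPC 5hmC downwards (red) and both inputs summed as a line, against distance from the centre of the shaded gene span. Over the Cdx2 span the ESC bars reach 25 reads while NPC have 3 reads in all, and at Sox17 a single bin holds 19 NPC reads.

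The tiles with the lowest ESC values in their loci were chosen for those values. The tile from 4490001 to 4495000, beside Sox17, held 1 ESC 5hmC read over 10 input reads (0.0710 times the genome, 0.00909 to 0.555) and 0 over 12 in NPC. It counts among the depleted NPC tiles, although the exact interval of this count reaches 1.36 times the genome. At Gata6 the tile over the low-coordinate end of the gene, from 11050001 to 11055000, held 2 over 9 in ESC (0.158 times, 0.0341 to 0.730), with too few input reads to be called depleted, and 1 over 15 in NPC (0.252 times, 0.0333 to 1.91). The tile next to it on the outer side, from 11045001 to 11050000, was the richest of the locus in ESC, with 32 over 7 (3.25 times, 1.43 to 7.36) and 3 over 17 in NPC. RefSeq places the noncoding gene Gata6os on that side. The longest stretch of Gata6 without an ESC 5hmC read, 3.61 kb from 11049991 to 11053604, covered the low-coordinate end of the gene and had 4 ESC and 11 NPC input reads. It was chosen for its lack of reads, and the exact interval of 0 over 4 reaches 1.08 times the genome-wide ESC level, so that a low level was not shown there.

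Highest ESC tiles elsewhere were that of Foxa2 from 147865001 to 147870000, which overlaps the low-coordinate end of the span, and that of Sox17 from 4465001 to 4470000. The Foxa2 tile held 33 over 6 in ESC (3.91 times, 1.64 to 9.32) and 6 over 16 in NPC (1.42 times, 0.555 to 3.62). The Sox17 tile held 33 over 9 (2.60 times, 1.25 to 5.44) and 5 over 25 (0.756 times, 0.289 to 1.98). In both, NPC were not enriched. The highest NPC tiles of Foxa2 and Gata6 held 6 NPC 5hmC reads each, over 12 and 9 input reads, and did not meet the minimum of 10.

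The lowest ESC tiles of the other loci were less poor. Those of Gata4 (63900001 to 63905000) and Foxa2 (147880001 to 147885000) stood at 0.309 (0.147 to 0.649) and 0.296 times the genome (0.104 to 0.840). Those of Cdx2 (148095001 to 148100000) and Gata2 (88125001 to 88130000) stood at 0.533 (0.252 to 1.13) and 0.888 times (0.416 to 1.90), within counting error of the genome. No tile of the Cdx2 and Gata2 loci was depleted in ESC, of 6 and 10 with enough input reads, against 35.9% in the genome.

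Input reads and stacked reads were examined as controls. The NPC/ESC ratio of input shares ran from 0.907 at Gata2 (0.749 to 1.10) to 1.23 at Foxa2 (0.947 to 1.59), and in none of the 6 whole loci did the interval exclude 1. Among gene spans that of Cdx2 did, as given above. No position in the loci held more than 2 reads in any library. At Gata2 the plus strand held 58.3% of ESC 5hmC reads (53.9% to 62.6%) but 39.9% of ESC input reads (32.9% to 47.2%), and at Sox17 it held 31.0% of NPC 5hmC reads (17.6% to 47.1%).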

How the data were processed

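hMeDIP-seq (immunoprecipitation with a 5hmC antibody) and input libraries of ESC and NPC were analysed, 1 library per group. The authors aligned reads to mm9, and Bowtie 0.12.7 is named, per the submitters' processing notes. Each line of the deposited files gives a position extended to 350 bp and, as a whole number, the count of reads there, not scaled. The treatment of multiply mapping reads is not given in the sources used here. The files held 7125863 (ESC 5hmC), 5067996 (ESC input), 1744174 (NPC 5hmC) and 6596405 (NPC input) distinct positions.

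Reads were placed by their midpoint and counted once per line in Python (version 3.11.15) with the packages scipy 1.17.1, pandas 2.3.3 and numpy 2.4.6. Tiles with under 5 summed input reads or over 5 times the median of 22 were left out. Intervals (95%) of NPC/ESC ratios are exact conditional (normal on the log scale above 2000 reads) and of shares Clopper-Pearson. Those relative to the genome, single tiles with few reads included, and those of comparisons between loci, between parts of loci and of genome windows are normal on the log scale (exact for a count of 0). Genome windows were adjacent, of each locus' or span's length, with at least 0.5 of the median input. Calls of enriched tiles and of depleted ESC tiles, and the exact interval of a ratio at a single set of counts, were tested on simulated data. The normal intervals were not. Named were all 6 loci and, in each, the highest and lowest ESC tile, the highest NPC tile and all NPC-enriched tiles. The members and rules were chosen with earlier results of these data known. The count of tiles with ESC above NPC, the mean over loci (log values weighted by inverse variance), the densest 1 kb stretches and the tile from 148110001 to 148115000 were chosen after their values were seen. RefSeq tables (GRCm38.p6) served for neighbours, transcription strand and promoter sequences.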

Additional observations from a re-analysis of the deposited data

How the results depend on the processing

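Counting all deposited reads moved no locus value beyond its interval and no tile count by over 1.5 times, and placing reads by their 5′ end moved no locus value so. All 70 tiles passed the input filter, so that dropping it could not change their counts. A background of 0.145 reads per input read, taken from NPC in 47681 tiles with least ESC 5hmC, was subtracted from both cell types. The NPC/ESC ratio was then 0.0582 for the 6 loci summed. It was 0.0169 at Gata4, 0.0770 at Gata6, 0.154 at Sox17, 0.101 at Foxa2, 0.0371 at Cdx2 and 0.0904 at Gata2. No genome-wide ratio was taken after this subtraction, so that these values have no background. In gene spans alone the ratio was 0.0806 summed, 0.110 at Foxa2, 0.0160 at Cdx2 and 0.0737 at Gata2. Relative to the genome, the spans of Sox17, Foxa2, Cdx2 and Gata2 stood at 0.488, 2.01, 3.17 and 2.78 in ESC, and those of Sox17, Cdx2 and Gata2 at 0.504, 0.270 and 1.09 in NPC. With 50 kb on each side Foxa2 stood at 0.815 in ESC, which reversed its direction, and at 0.793 in NPC. Chosen after seeing the data, spans with summed inputs gave 0.0344 at Cdx2, 0.0619 at Gata2 and 0.0828 summed. Without the densest NPC bin the ratio was 0.167 at Sox17 and 0.107 summed.

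With 5 reads added, 11 tiles were enriched in ESC, 0 were depleted in NPC and 23 had ESC above NPC. Below the genome-wide ratio there were then 2 of the tiles enriched in either cell type and 2 of those with 10 or more ESC reads, and 10 of the latter lay above it. Tiles counted from the window start put 3 tiles enriched in either cell type above the genome-wide ratio, and summed inputs put 3 tiles with 10 or more ESC reads above it. A minimum of 5 or 20 5hmC reads left 9 or 2 tiles enriched in NPC. A fold of 1.5 kept all tile counts within 1.5 times. Apart from the setting with 5 reads added, no genome shares were taken, so that these counts were not set against a background. The cause of these changes was not tested. No paired analysis was possible because each group held 1 library.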
